A study of Mus musculus with 8 samples.

Results

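Gene flank regions are stretches of open chromatin that lie outside a gene but within 10 kb of one. They were taken from ATAC-seq of mouse germ cells, an assay in which a transposase cuts open chromatin and leaves sequencing adapters in it, so that tags accumulate there. Merging peaks of the 8 libraries with a shared stretch of 1 bp or more gave 87144 regions, and 11476 of them (13.2%) were gene flank regions. A region was kept when none of its peaks touched a CpG island, at least 1 peak had a gene in the deposited table, every entry placed it upstream or downstream of that gene, and no entry lay within 1000 bp of a gene start. The other regions lay inside a gene (27970), had no gene within 10 kb (27037, called intergenic here), lay at a gene start without a CpG island (4881) or with one (11706), or held a CpG island away from a start (4074).

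Sequence flanking a gene can hold enhancers, which are bound by transcription factors and act on a gene from a distance, often in 1 cell type or stage. Promoters with a CpG island are by contrast open in most cell types. In the testis, retinoic acid (RA) drives undifferentiated spermatogonia into differentiation, and the differentiating cells divide through the A1 to A4, intermediate and B stages before meiosis.

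Spermatogonia were synchronised in PIWIL2-eGFP mice, in which the *Piwil2* promoter drives eGFP in germ cells from before birth to early spermatids. The labels give the strain as derived from C57BL/6 x 129s4/SvJae, whereas the methods give C57BL/6 x SJL. All mice were fed 100 mg/kg of WIN 18,446, which blocks RA synthesis, daily for 7 days from 2 dpp. Mice of the 0 h timepoint were collected without RA, and the other mice were injected with 200 µg RA at 9 dpp and collected 18, 48 or 120 h later. No vehicle control is stated, so that age and the injection itself cannot be told apart from RA. eGFP-positive cells were sorted, and each timepoint had 2 libraries, each from 1 mouse. The p-values below take these libraries, and not the regions, as the replicates.

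The table held 328733 peaks, from 24643 to 72215 per library, and all libraries had been reduced to the same number of tags. The value of a peak is the coverage at its summit, and the lowest value in any library was 24 or 25, so that a region without a peak has no height there. Numbers of reads were not analysed here and the depth behind a peak is unknown. Of 6 germ cell markers (*Piwil2*, *Ddx4*, *Dazl*, *Dppa3*, *Mael* and *Tdrd1*), 4 to 6 had a peak at their start in each library, with summed values of 2093 and 2476 at 0 h and of 777 to 1770 later. Of 6 Sertoli cell markers, 5 had one in both 0 h libraries (summed values 531 and 698) and 2 or 3 in the later libraries (105 to 246), with *Fshr* at none. Peritubular myoid markers were found at 4 of 4 genes at 0 h and at 1 to 3 later, leukocyte markers at 1 or 2 of 4 at 0 h and at none later, endothelial markers at 1 or 2 of 4 throughout, and Leydig markers at 0 or 1 of 6. Their part in the results below was not tested. In a bulk library, fewer cells with an open region and less opening in each cell cannot be told apart.

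The gene flank regions differed widely in sequence and in their course. Windows that reach 100 bp to each side of the summit of the highest peak are shown for the regions on which the account turns, on the plus strand of mm10 (GRCm38, RefSeq sequence). Capitals mark matches, on either strand, to 16 short motifs that transcription factors bind. They are CCAAT for the factor NF-Y, GGGCGG for the SP and KLF families, CCGGAAG for the ETS family, TGACGTCA for CREB factors, TGANTCA for the dimer AP-1, CACGTG for one kind of E-box protein and CAGCTG for another, ATGCAAAT for POU factors, ACAAAG together with ACAATG for SOX factors, GTAAACA for forkhead factors, AGATAA for the GATA family, AGGGGGCG for the core of the CTCF site, ACATTGT for DMRT factors and AGGTCA for single nuclear receptors. The last is the DR5 element of RA receptors, a pair of AGGTCA units 5 bases apart. The SOX motif ACAATG lies inside the reverse complement of the DMRT motif, so that each DMRT match is also a SOX match.

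The first windows are the 2 regions highest in their lowest library. The *Tra2a* and *Btbd16* windows share a run of 30 identical bases on opposite strands, although they lie on different chromosomes. Whether sequence shared with other places in the genome adds to their coverage was not tested.
Tra2a (chr6:49236413-49236613): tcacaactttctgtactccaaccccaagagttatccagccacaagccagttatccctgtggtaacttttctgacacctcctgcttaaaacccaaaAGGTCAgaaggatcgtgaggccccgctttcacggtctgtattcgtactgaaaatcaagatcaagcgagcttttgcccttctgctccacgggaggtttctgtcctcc
Btbd16 (chr7:130834429-130834629): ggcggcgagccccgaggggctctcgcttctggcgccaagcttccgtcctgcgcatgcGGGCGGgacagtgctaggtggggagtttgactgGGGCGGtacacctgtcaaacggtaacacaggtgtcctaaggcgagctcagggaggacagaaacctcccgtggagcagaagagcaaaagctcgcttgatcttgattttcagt

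The following windows are from the regions with the largest relative fall and rise at 120 h. The *A530010F05Rik* window holds CCAAT 3 times, in copies of a unit that repeats along the window, and the *Itga6*/*Pdk1* window holds ACAAAG 2 times. The *Slco1b2* window holds the DMRT motif and was chosen for it after its values were seen.
A530010F05Rik (chr2:125280125-125280325): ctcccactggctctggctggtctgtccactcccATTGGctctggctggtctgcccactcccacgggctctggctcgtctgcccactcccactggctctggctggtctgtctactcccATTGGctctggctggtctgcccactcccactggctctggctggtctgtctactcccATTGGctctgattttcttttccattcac
Itga6/Pdk1 (chr2:71866717-71866917): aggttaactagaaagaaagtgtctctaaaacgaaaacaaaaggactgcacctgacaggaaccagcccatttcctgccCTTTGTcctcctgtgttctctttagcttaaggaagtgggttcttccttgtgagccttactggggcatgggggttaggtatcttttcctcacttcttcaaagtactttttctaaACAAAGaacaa
Dlx4/A730090H04Rik (chr11:95138461-95138661): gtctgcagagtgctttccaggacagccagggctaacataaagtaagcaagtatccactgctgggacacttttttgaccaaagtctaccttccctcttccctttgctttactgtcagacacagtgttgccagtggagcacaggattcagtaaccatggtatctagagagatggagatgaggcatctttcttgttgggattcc
Itprip (chr19:47925869-47926069): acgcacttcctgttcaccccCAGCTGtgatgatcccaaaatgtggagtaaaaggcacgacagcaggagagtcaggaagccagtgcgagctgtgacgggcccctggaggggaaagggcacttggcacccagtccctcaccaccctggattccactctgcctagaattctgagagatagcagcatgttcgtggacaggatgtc
Slco1b2 (chr6:141691229-141691429): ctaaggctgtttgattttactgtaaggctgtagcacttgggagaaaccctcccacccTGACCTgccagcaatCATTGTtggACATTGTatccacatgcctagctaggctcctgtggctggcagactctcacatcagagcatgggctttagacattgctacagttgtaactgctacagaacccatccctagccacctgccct

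The last windows are from a region open at 0 h only, a region open at 120 h only, and a region of *Ccnd2*. The *Cstf3* window holds ACAAAG 4 times, mostly in copies of a repeated unit, and the *Ccnd2* window holds the DMRT motif.
Cstf3 (chr2:104588701-104588901): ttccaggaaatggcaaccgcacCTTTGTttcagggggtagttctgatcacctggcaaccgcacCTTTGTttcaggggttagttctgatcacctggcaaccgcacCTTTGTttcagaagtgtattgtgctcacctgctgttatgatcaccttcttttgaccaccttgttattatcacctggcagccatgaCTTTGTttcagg
Ace (chr11:105958525-105958725): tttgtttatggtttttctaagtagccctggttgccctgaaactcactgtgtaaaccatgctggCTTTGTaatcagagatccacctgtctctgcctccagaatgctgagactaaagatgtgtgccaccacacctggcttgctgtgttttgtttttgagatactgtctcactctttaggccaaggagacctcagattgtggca
9630033F20Rik/Ccnd2 (chr6:127117501-127117701): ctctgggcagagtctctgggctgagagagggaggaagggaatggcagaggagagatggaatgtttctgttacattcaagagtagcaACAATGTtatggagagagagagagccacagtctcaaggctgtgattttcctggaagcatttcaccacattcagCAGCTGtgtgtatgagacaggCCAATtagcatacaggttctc

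Of the 11476 regions, 4686 lay upstream of their gene, 5119 downstream, and 1671 upstream of 1 gene and downstream of another. A single gene was assigned to 8704 of them and 2 genes to 2346. The regions reached 9712 genes, of which 6121 had 1 region and 79 had at least 5. Of the genes that could be matched to RefSeq, 86.4% were protein coding. Upstream regions lay from 1002 to 10693 bp from the gene start, with a median of 5722.5 bp. Downstream regions lay at a median of 4769 bp from the nearest edge of their gene. For 1168 genes a gene flank region was the sole accessible region the table assigned, and 839 of these genes had one called at 0 h, with 278 for 18 h, 240 for 48 h and 222 for 120 h. A region was called at a timepoint when both libraries had a peak in it.

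The regions were narrower than all regions, and lower in CpG because the rule leaves out CpG islands. Their median width was 387 bp, against 424 bp over all regions. The windows had a median GC content of 51.2% and a mean of 4.0 CpG, against 52.7% and 6.52 over all regions. Intergenic regions had 50.7% and 3.9, and in-gene regions 50.2% and 3.74, so that gene flank regions were not low beside these. GENCODE vM21 placed 2589 regions (22.6%) over a gene body and 1359 (11.8%) within 1000 bp of a transcript start, so that 8388 (73.1%) were outside both. Regions with a peak in a single library made up 29.9%, against 26.4% of all regions.

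The number of open gene flank regions was highest at 0 h. The 0 h libraries had a peak in 8916 and 8468 of them, the 18 h libraries in 2917 and 3507, the 48 h libraries in 2342 and 3424, and the 120 h libraries in 4523 and 2247. Both 0 h libraries lay above all 6 later libraries, and the 120 h libraries were the farthest apart of any pair. The regions made up 12.6% of the regions of each 0 h library and between 9.47% and 11.8% of those of the later libraries. The mean share was 12.6% ± 0.0084 (SD, n = 2) at 0 h and 10.5% ± 0.88 (SD, n = 6) later, a difference of -2.11 percentage points (exact permutation test, two-sided, p = 0.0714, which is the smallest p that 2 against 6 libraries allow). When the 24643 highest peaks of each library were used, the difference was -0.761 points.

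**Figure D1:**
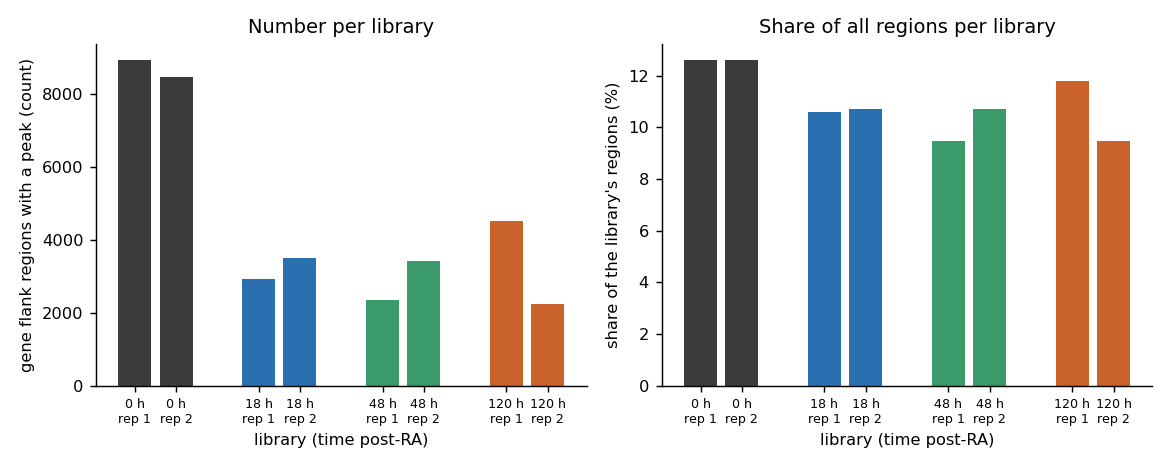
Gene flank regions with a peak in each of the 8 libraries, as a count (left) and as a share of all regions of that library in percent (right), with bars coloured by timepoint and no error bars. Both 0 h libraries, at 8916 and 8468 regions and 12.6%, stand above every later library.

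With all peaks counted, the later libraries had lost gene flank regions to about the same degree as regions inside genes, less than intergenic regions, and more than gene starts. The log2 ratio of gene flank to in-gene regions in a library was -1.23 ± 0.02 (SD, n = 2) at 0 h and -1.22 ± 0.026 (SD, n = 6) later, and differed by 0.0099 (exact permutation test, two-sided, p = 0.786). The ratio to intergenic regions was -1.28 ± 0.045 (SD, n = 2) at 0 h and -0.89 ± 0.12 (SD, n = 6) later, and rose by 0.39 with no overlap (exact permutation test, p = 0.0714). The ratio to all gene starts, with or without a CpG island, was -0.82 ± 0.068 (SD, n = 2) at 0 h. Later it was -1.89 ± 0.3 (SD, n = 6), a difference of -1.07 (exact permutation test, p = 0.0714). With equal peak numbers from each library the differences were -0.097, 0.029 and -0.17, so that little of the last 2 remained and the first turned its direction.

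Upstream and downstream regions took nearly the same course. The log2 ratio of upstream to downstream regions was -0.14 and -0.12 in the 0 h libraries and -0.084 to 0.031 later, and rose by 0.099 on average (exact permutation test, two-sided, p = 0.0714). It was -0.066 with equal peak numbers. Of the upstream regions called at 0 h, 32.4% were also called at 18 h, and of the downstream regions 30.3%. Among upstream regions, 35.7% of those at 1 to 2 kb from the start were called again at 18 h, and between 29.3% and 35.7% in the kb bins from 2 to 10 kb. There was no steady change with distance. Gene starts without a CpG island, which cover all distances up to 1000 bp from a start, were called again at 18 h in 42.3% of cases.

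At least 1 timepoint was called for 7583 gene flank regions, and 3893 had a peak but no timepoint with both libraries. The number called was 7211 at 0 h, 2334 (18 h), 1982 (48 h) and 2048 (120 h). The class at 0 h only held 4315 regions, 56.9% of those called, beside a background of 49.8% over all regions. All 4 timepoints shared 1141 (15.0%, background 25.3%). At 120 h only there were 268 (3.53%, background 2.49%), at 18 h only 34 and at 48 h only 23. In-gene regions had 57.4% at 0 h only, 13.5% at all 4 timepoints and 4.02% at 120 h only. Intergenic regions had 65.6%, 10.5% and 2.07%. No later library had a peak in 2554 of the gene flank regions at 0 h only, and no earlier library had one in 140 of those at 120 h only. Leaving out 1 library of a timepoint raised its count to 3507 at 18 h (without replicate 1), 3424 at 48 h (without replicate 1) and 4523 at 120 h (without replicate 2), and the class at 120 h only then rose to 1068. Taking the same number of highest peaks per library gave 2121 at 0 h and 470 in the class at 0 h only.

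Whether a region was called again followed its height at 0 h. In 10 classes of 0 h height of equal size over all regions, from values of 28.5 to 1761, the percent of gene flank regions called again at 18 h rose from 1.09% in the lowest class to 97.6% in the highest. At 120 h it rose from 2.96% to 88.2%. At matched height, gene flank regions were called again at 18 h less often than in-gene regions in 9 of 10 classes, with a mean difference of -2.68 percentage points (4 of 10 classes and 0.709 points at 120 h), and less often than intergenic regions in 7 of 10, with a mean difference of -4.03 points. At 120 h they stood above intergenic regions in 10 of 10 classes, by 2.42 points on average, and below gene starts with a CpG island in all 10, with a mean difference of -26.7 points. These differences are descriptions over regions of the same libraries, with no test.

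**Figure D2:**
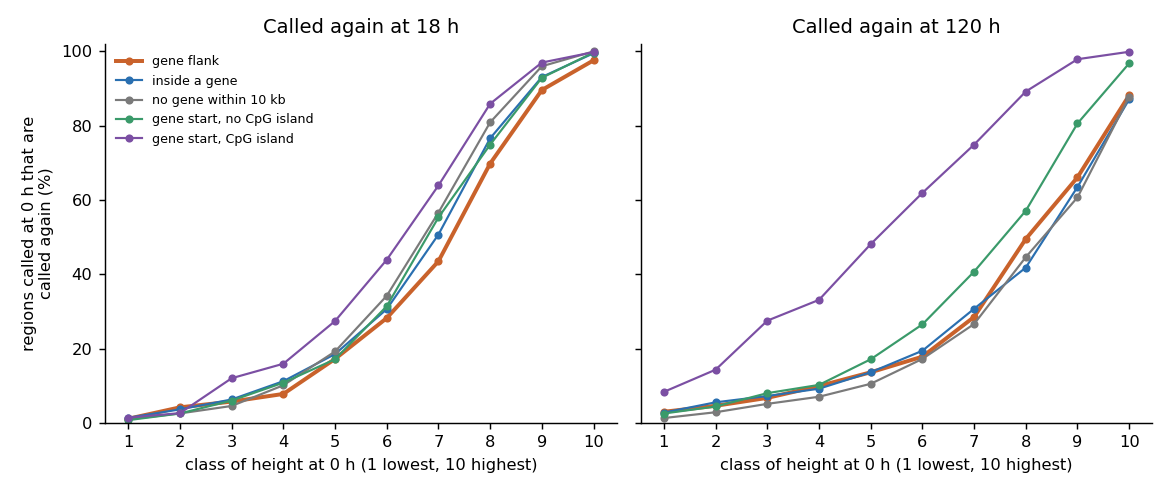
Percent of regions called at 0 h that were called again at 18 h (left) and 120 h (right), by class of height at 0 h, for gene flank regions (thick line) and 4 other kinds of region, each point 1 class. Gene flank regions rise from 1.09% to 97.6% at 18 h, and at 120 h they differ from gene starts with a CpG island by -26.7 points on average.

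Heights were compared in the 1141 gene flank regions with a peak in all 8 libraries, within a limma fit over all 15536 such regions. A region that lost its peak at any timepoint has no height there and was not in this comparison. As deposited, 1006 gene flank regions (88.2%) were lower at 18 h than at 0 h and 5 (0.438%) higher at an adjusted p under 0.05 from limma, beside backgrounds of 92.3% and 0.296% over all regions. At 48 h 1013 were lower and 5 higher than at 0 h (backgrounds 93.3% and 0.328%). At 120 h 729 (63.9%) were lower and 20 (1.75%) higher, with backgrounds of 44.8% and 0.882%. The share lower was 64.1% of in-gene regions, 67.1% of intergenic regions and 62.9% of gene starts without a CpG island. It was 27.8% of gene starts with a CpG island. The median log2 change of gene flank regions was -1.26 at 18 h, -1.43 at 48 h and -1.09 at 120 h, against -1.23, -1.36 and -0.75 over all regions. The count at 120 h was 380 lower without 120 h replicate 2 and 441 without 0 h replicate 2. The 5 higher regions at 18 h became 1 without 0 h replicate 2 and 3 without 18 h replicate 2. The 20 higher at 120 h became 12 without 0 h replicate 2, 9 without 120 h replicate 1 and 37 without 120 h replicate 2.

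Between 18 and 48 h, 0 gene flank regions were lower and 0 higher in limma (backgrounds 0.00644% and 0%), with 32 lower and 1 higher at an unadjusted p under 0.05. Between 48 and 120 h, 5 were lower and 130 higher (backgrounds 0.18% and 23.7%). The 130 became 5 without 48 h replicate 1, 23 without 48 h replicate 2, 20 without 120 h replicate 1 and 438 without 120 h replicate 2. The 5 became 25 without 120 h replicate 1 and between 0 and 3 without each of the other 7 libraries. The 120 h libraries had median log2 heights of 7.38 and 6.73, a wider gap than at any other timepoint.

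Since most regions moved together, each library was also centred on its median, which gives the change relative to the median region and moved the median of all regions from -1.23 to 0.03 at 18 h. On this scale 8 gene flank regions were lower and 28 higher at 18 h (backgrounds 0.225% and 1.25%), and 27 lower and 74 higher at 48 h (backgrounds 1.51% and 3.26%), all relative to 0 h and by the same limma threshold. The 8 and 28 became 0 and 8 without 18 h replicate 1, and the 8 became 1 without 18 h replicate 2 and 3 without 0 h replicate 1. The 27 and 74 became 5 and 27 without 48 h replicate 1 and 10 and 30 without 48 h replicate 2, the 27 became 10 without 0 h replicate 1 and 14 without either 18 h library, and the 74 became 45 without 0 h replicate 2. At 120 h 283 (24.8%) were relatively lower and 145 (12.7%) relatively higher than at 0 h, beside backgrounds of 15.8% and 23%. As deposited the split had been 729 to 20. In-gene regions stood at 27.3% and 14.0%, intergenic regions at 31.9% and 13.5%, gene starts without a CpG island at 28.2% and 11.6%, and gene starts with a CpG island at 5.88% and 31.9%. The median relative log2 change at 120 h was -0.20 in gene flank regions and 0.36 at gene starts with a CpG island, a difference that was not tested. The 283 fell to 145 without 120 h replicate 2 and 170 without 0 h replicate 1, and quantile normalisation gave 173 lower and 100 higher. Between 18 and 48 h, 0 were relatively lower and 0 higher in limma (backgrounds 0% and 0%), with 46 and 37 at an unadjusted p under 0.05. Between 48 and 120 h, 137 were relatively lower and 52 higher (backgrounds 7.45% and 9.47%) in limma. Without 48 h replicate 2 they were 0 and 0, without 48 h replicate 1 they were 26 and 9, without 120 h replicate 2 they were 13 and 11, and without 120 h replicate 1 the 52 became 29.

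**Figure D3:**
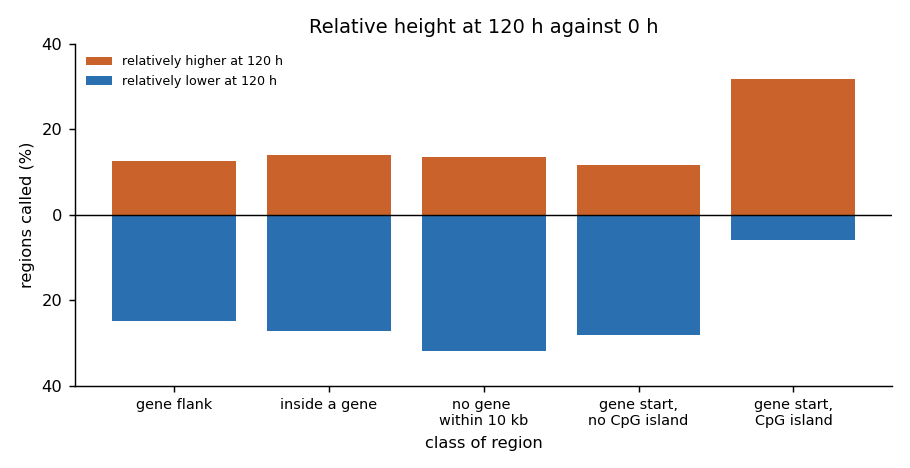
Percent of regions with a peak in all 8 libraries that were relatively higher (upward bars) or relatively lower (downward bars) at 120 h than at 0 h in limma on heights centred per library, by kind of region. Gene flank regions show 12.7% higher and 24.8% lower, and gene starts with a CpG island 31.9% and 5.88%.

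Relative to the other kinds, the height of gene flank regions did not move in 1 direction over the later timepoints, which are pooled in the tests that follow. The median log2 height of gene flank regions minus that of intergenic regions was 0.11 in both 0 h libraries and from 0.074 to 0.24 later, and differed by 0.019 (exact permutation test, two-sided, p = 0.786). Both 18 h libraries lay below those of 0 h (0.074 and 0.081) and both 120 h libraries above (0.14 and 0.24). Against in-gene regions the difference was -0.051 (exact permutation test, p = 0.357). Against all gene starts, with or without a CpG island, it was -0.21 (exact permutation test, p = 0.286). Against these gene starts, both 120 h libraries (-0.80 and -1.17) lay below both 0 h libraries (-0.34 and -0.60), with a mean difference of -0.51 that was not tested on its own. In 633 pairs of a gene flank region and the start region of its own gene, with 608 genes, the flank region was the higher one in 39.0% and 28.6% of pairs at 0 h and in 21.3% to 37.6% later. The flank region minus its start stood at -0.41 ± 0.15 (SD, n = 2) at 0 h and -0.57 ± 0.22 (SD, n = 6) later (exact permutation test, two-sided, p = 0.286). The lowest value, -0.95, was in 120 h replicate 2.

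The regions with the highest value in their lowest library have a peak in every library by that choice, and their values are given as a description. The region 3′ of *Tra2a*, a splicing regulator, had values of 777 and 998 in the 0 h libraries, 638 and 651 (18 h), 578 and 673 (48 h) and 753 and 742 (120 h). A region 3′ of *Btbd16*, inside a GENCODE gene body, had 1021 and 1085, then 563 and 667, 680 and 606, and 804 and 722. In both, the 0 h libraries were the highest and the 120 h libraries the next. A region 3′ of *P4ha2*, a subunit of collagen prolyl hydroxylase, had 506 and 524 in the 0 h libraries, 646 and 566 (18 h), 553 and 609 (48 h) and 468 and 460 (120 h). Its 18 and 48 h libraries lay above those of 0 h, and relative to the median region it stood 1.49 log2 units higher at 18 h (standard error 0.25, adjusted p = 0.0071 from limma). As deposited it differed by 0.23 at 18 h (adjusted p = 0.538 from limma). Repeat sequence made up 69.2% of its window. The region between *Slc39a3*, a zinc transporter, and *Sgta*, a co-chaperone, had 673 and 1021 at 0 h, 311 to 499 at 18 and 48 h, and 865 and 597 at 120 h, so that 120 h replicate 1 lay within the range of 0 h and replicate 2 below it. Its window overlaps an exon of a GENCODE gene, and the region lies within 1000 bp of a GENCODE transcript start.

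The largest relative falls at 120 h were seen in regions that were among the higher ones at 0 h. A region needed a peak in every library, and peaks have a lowest value. A large fall could thus be seen only from a high start. The region 3′ of *A530010F05Rik* (chromosome 2, from 125279920 to 125280592) had values of 524 and 611 in the 0 h libraries, 125 and 170 (18 h), 61 and 115 (48 h) and 76 and 36 (120 h). Its log2 change at 120 h was -3.44 as deposited and -2.54 relative to the median region (standard error 0.24, adjusted p = 4.2e-05 from limma). The region between *Itga6*, the integrin subunit used to sort spermatogonial stem cells, and *Pdk1*, a kinase that inhibits pyruvate dehydrogenase (chromosome 2, from 71866486 to 71867212), had 658 and 597 in the 0 h libraries, 162 and 200 (18 h), 151 and 176 (48 h) and 156 and 40 (120 h). Its relative log2 change was -2.10 (standard error 0.33, adjusted p = 0.00069 from limma). In both regions the 0 h libraries stood far above every later library, and 120 h replicate 2 was the lowest of all.

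The regions 3′ of *Spryd7* and of *Slc4a7*, a bicarbonate transporter, fell in the same way, from 577 and 484 to 109 and 41, and from 420 and 650 to 85 and 53. Both windows overlap an exon of a GENCODE gene, and the *Slc4a7* region lies within 1000 bp of a GENCODE transcript start. A region upstream of *4932438H23Rik*, inside a GENCODE gene body, fell in steps, with 845 and 1034 in the 0 h libraries, 433 and 480 (18 h), 244 and 366 (48 h) and 262 and 73 (120 h). The relative log2 changes of these 3 regions at 120 h were between -2.09 and -1.87. All 5 falls were past the threshold in the main relative fit with the 0 h and 120 h libraries apart, because their choice required both.

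The largest relative rises began from low values at 0 h, which a choice by the size of the rise favours. The region between *Dlx4*, a homeobox transcription factor, and *A730090H04Rik* (chromosome 11, from 95138294 to 95138786) had values of 83 and 54 in the 0 h libraries, 60 and 68 (18 h), 96 and 128 (48 h) and 439 and 195 (120 h). Its log2 change at 120 h was 2.13 as deposited and 3.02 relative to the median region (standard error 0.28, adjusted p = 4e-05 from limma). The region upstream of *Hdac4*, a class IIa histone deacetylase, overlaps a GENCODE gene body. It likewise stayed between 36 and 63 through 48 h and had 225 and 104 at 120 h. In both the 120 h libraries stood apart from all others, with replicate 1 the higher of the pair. Relative to the median region *Hdac4* was also higher at 18 h (log2 change 1.54, adjusted p = 0.0274 from limma) and at 48 h (1.73, adjusted p = 0.00753 from limma), and *Dlx4* at 48 h (2.12, adjusted p = 0.000704 from limma).

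The other rises were present by 18 h as deposited. The region upstream of *Itprip*, a protein that binds the inositol trisphosphate receptor (chromosome 19, from 47925797 to 47926177), had values of 92 and 81 in the 0 h libraries, 162 and 204 (18 h), 187 and 254 (48 h) and 327 and 250 (120 h). Its log2 change at 18 h was 1.07 as deposited (standard error 0.37, adjusted p = 0.00547 from limma), against a median of -1.26 in gene flank regions. Downstream of *Mapk4*, an atypical MAP kinase, a region had 85 and 51 in the 0 h libraries, 141 and 189 (18 h), 152 and 203 (48 h) and 309 and 239 (120 h). The region 3′ of *Nbas*, which acts in transport from the Golgi to the endoplasmic reticulum, had 56 and 38, then 95 and 122, 124 and 133, and 181 and 128. These 3 are among the 5 gene flank regions higher at 18 h as deposited. All 5 rises were also called at 120 h as deposited. The call in the main relative fit and the gap between the 0 h and 120 h libraries were required by their choice.

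**Figure D4:**
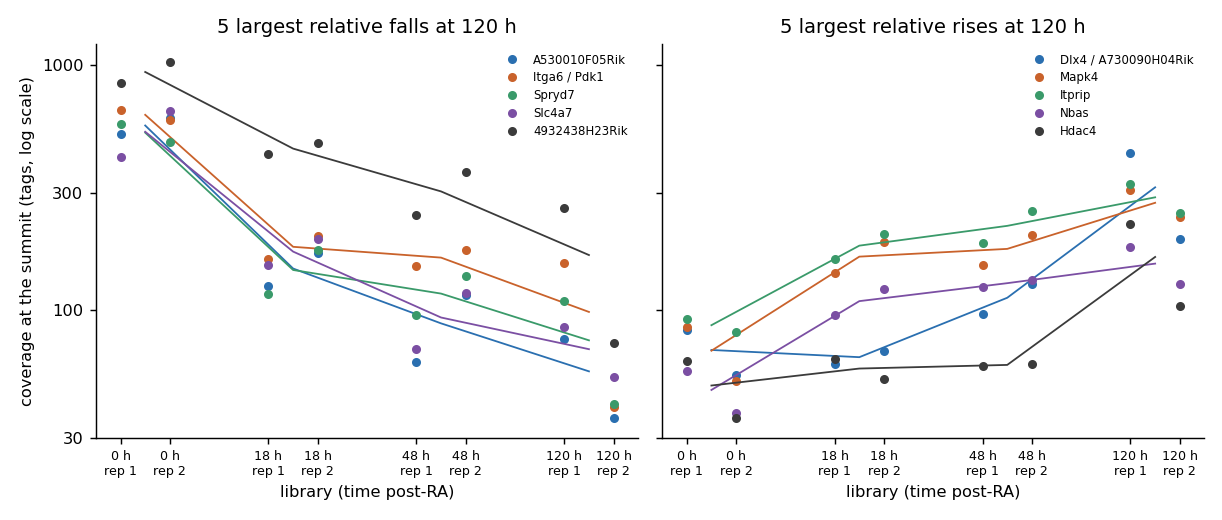
Coverage at the summit (log axis) in each of the 8 libraries for the 5 gene flank regions with the largest relative fall (left) and the 5 with the largest relative rise (right) at 120 h, each point a library and each line the mean of the 2 libraries of a timepoint. All 5 rising regions have their highest mean at 120 h. The *Itprip*, *Mapk4* and *Nbas* regions are already higher at 18 h, whereas the 18 h libraries of *Dlx4* and *Hdac4* overlap those of 0 h.

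Regions open at a single timepoint reached lower values. The highest at 0 h with no later peak lay between *Scamp4*, a secretory carrier membrane protein, and *Csnk1g2*, a casein kinase, with values of 272 and 365. It was followed by one upstream of *Cstf3*, a subunit of the mRNA cleavage stimulation factor, with 244 and 325. Next were regions between *Idua*, a lysosomal enzyme, and *Fgfrl1* (215 and 275) and upstream of *Gsk3a*, a glycogen synthase kinase (212 and 305). A region upstream of *Mtr*, the methionine synthase, came after them (215 in the higher library). By GENCODE the *Idua*/*Fgfrl1* region overlaps a gene body and lies within 1000 bp of a transcript start, with its window over an exon. The highest at 120 h with no other peak lay upstream of both *Pfas*, an enzyme of purine synthesis, and *Ctc1*, a telomere maintenance protein, with 309 and 188. The regions upstream of *Ace*, the angiotensin-converting enzyme (259 and 172), and *Smg9*, a factor of nonsense-mediated decay (299 and 163), followed, with *Cers4*, a ceramide synthase (366 and 131), and *Col5a1*, a collagen chain (233 and 125). In all 5, 120 h replicate 1 was the higher library. Repeat sequence made up 80.1% of the *Pfas*/*Ctc1* window and 77.6% of that of *Ace*.

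A few genes had many gene flank regions. *LOC101055764* on chromosome 13 had 11, of which 6 had a peak in both 0 h libraries and 6 to 8 in each later library. Its number did not fall after 0 h, unlike the total. *Mtr* had 7, with a peak in 6 of them in both 0 h libraries and in 1 to 3 later. *Fam222a* had 7, with 5 at 0 h and 1 to 3 later. *2810008D09Rik* had 7, with 3 and 4 at 0 h and 0 to 4 later. *1700054A03Rik* had 6, with 5 at 0 h and 1 or 2 later.

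Gene flank regions were found at 19 of 29 genes of undifferentiated spermatogonia, 40 regions in all. They were called 25 times at 0 h, 12 times at 18 h, 7 times at 48 h and 11 times at 120 h, and 12 of the 26 called at any timepoint were at 0 h only (49.8% over all regions) and 7 had a peak in every library. As deposited all 7 were lower at 18 h and at 48 h in limma, and 4 were lower at 120 h, beside backgrounds of 92.3%, 93.3% and 44.8% over all regions. Relative to the median region none was lower, and 2 were higher at 120 h. One of these lay 3′ of *Cdh1*, the gene of E-cadherin, and upstream of *Tango6*, with values of 150 and 151 in the 0 h libraries, 51 and 57 (18 h), 58 and 47 (48 h) and 291 and 153 (120 h). It was relatively higher at 120 h by 1.38 log2 units (standard error 0.23, adjusted p = 0.00104 from limma), and as deposited 0.49 (adjusted p = 0.279 from limma). The other lay 3′ of *Eomes*, a T-box factor of stem cell subsets, with 171 and 147, then 47 and 48, 45 and 48, and 259 and 98 (relative log2 change 0.90, adjusted p = 0.0179 from limma). This call was past the threshold in 9 of 12 relative settings, with adjusted p from 0.0067 to 0.15 in limma, and the change as deposited was 0.007 (adjusted p = 0.989 from limma). Both dipped at 18 and 48 h below all 0 h and 120 h libraries.

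The *Eomes* locus had 6 gene flank regions, of which 2 upstream and 2 downstream had a peak in 0 h libraries alone. Upstream of *Nanos2*, a translational repressor that keeps spermatogonia undifferentiated, a region with peaks in all libraries had values of 269 and 310 in the 0 h libraries, 146 and 147 (18 h), 111 and 181 (48 h) and 295 and 110 (120 h). A second one, nearer to the start, had a peak in 0 h replicate 1 alone (184). At *Neurog3*, a factor of progenitor spermatogonia, a region 3′ of the gene (chromosome 10, from 62135504 to 62135886) was open in the 120 h libraries alone, with values of 98 and 91. The region upstream of *Neurog3*, which overlaps a GENCODE gene body, was lower at 120 h. It had 374 and 408 in the 0 h libraries and 158 and 152 in the 120 h libraries. Its log2 change was -1.33 as deposited (adjusted p = 0.0015 from limma) and -0.44 relative to the median region (adjusted p = 0.174 from limma). Upstream of *Egr4*, a zinc finger factor, a region had 249 and 208 at 0 h, 61 and 79 at 18 h and no peak later. Upstream of *Sdc4*, a syndecan, a region had 256 and 184 at 0 h and no peak later.

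Gene flank regions were found at 12 of 19 genes of differentiating spermatogonia and of entry to meiosis, 20 regions in all, with 14 called at 0 h, 3 for 18 h, 4 for 48 h and 2 for 120 h. Of the 14 called at any timepoint, 10 were at 0 h only, beside 49.8% over all regions and 56.9% of gene flank regions. The region 3′ of *Ccnd2*, a D-type cyclin of differentiating spermatogonia, also assigned to *9630033F20Rik*, had values of 133 and 114 in the 0 h libraries, 77 and 81 (18 h), 79 and 112 (48 h) and 205 and 106 (120 h). Its relative log2 change was 1.00 at 48 h (adjusted p = 0.0257 from limma) and 1.15 at 120 h (standard error 0.23, adjusted p = 0.00286 from limma), and as deposited 0.26 at 120 h (adjusted p = 0.586 from limma). Upstream of *Spo11*, which makes the DNA breaks of meiosis, a region had 179 and 162 in the 0 h libraries, 43 and 62 (18 h), 54 and 79 (48 h) and 80 and 52 (120 h). At 120 h the log2 change was -1.40 as deposited (adjusted p = 0.000834 from limma) and -0.51 relative to the median region (adjusted p = 0.0751 from limma). GENCODE places this *Spo11* region over a gene body and within 1000 bp of a transcript start. Upstream of *Sycp3*, a protein of the synaptonemal complex, a region had 229 and 248 at 0 h, 80 in 18 h replicate 2 and no other later peak. Upstream of *Stra8*, the RA-induced gatekeeper of meiosis, a region at -1440 bp (chromosome 6, from 34919342 to 34919702) had 64 and 65 at 0 h and 98 and 75 at 48 h, with no peak at 18 and 120 h. *Kit*, the receptor of differentiating spermatogonia, had 1 gene flank region, with a peak in 120 h replicate 1 alone (30).

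Of 26 genes of the RA pathway, 11 had gene flank regions, 24 in all. They were called 16 times at 0 h, 2 times at 18 h, 2 times at 48 h and 3 times at 120 h, and 13 of the 16 called at any timepoint were at 0 h only, beside 49.8% over all regions and 56.9% of gene flank regions. The pair with a peak in every library were lower at 18 h as deposited (92.3% over all regions), and neither was past the threshold relative to the median region. Upstream of *Rarg*, the RA receptor of spermatogonia, the values were 238 and 210 in the 0 h libraries, 96 and 119 (18 h), 86 and 164 (48 h) and 170 and 90 (120 h). Downstream of *Crabp2*, a carrier of RA in the cell, they were 152 and 197, then 48 and 52, 55 and 71, and 134 and 100. Among the RA receptors, *Rara* had 5 gene flank regions, of which none had a peak in all libraries, *Rxra* 2 and *Rxrg* 1. Upstream of *Dhrs3*, which turns retinal back to retinol, a region had 128 and 118 at 0 h and no peak later. Downstream of *Cyp26a1*, which degrades RA, one had 45 and 47 at 0 h alone.

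The DMRT motif, bound by factors such as DMRT1, which controls the switch of spermatogonia from mitosis to meiosis, was more frequent in the later libraries. The DMRT motif was found in 10.7% of the windows of gene flank regions, against 9.65% over all regions, 13.5% of in-gene and 11.5% of intergenic ones. It was present in 7.53% of gene flank regions at 0 h only, 16.8% of those at 120 h only and 19.8% of those at all 4 timepoints. Among regions with relative heights, it was present in 14.1% of the 283 lower at 120 h and in 32.4% of the 145 higher. In-gene regions had 20.5% and 29.6% in the same classes and intergenic regions 18.2% and 28.3%, so that the order was the same in all 3 kinds. These shares are descriptions, and a match is not a bound site.

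By library, the DMRT motif was found in 10.9% and 10.5% of the gene flank regions open at 0 h, 16.1% and 14.0% (18 h), 16.9% and 15.6% (48 h) and 17.4% and 16.2% (120 h). All 6 later libraries lay above both 0 h libraries. With equal peak numbers from each library the shares were 15.0% and 13.7% at 0 h and from 16.2% to 19.9% later, still with no overlap. The SOX motif ACAATG, which overlaps it, was found in 18.5% and 17.8% at 0 h and in 21.9% to 24.8% later, but with equal peak numbers the libraries overlapped, at 23.6% and 21.1% against 23.3% to 27.6%. Of the regions called at 0 h, 49.4% of the 809 with the motif were called again at 18 h, against 29.2% of the 6402 without it. In the upper 5 classes of 0 h height these were 74.8% and 56.2%, and in the lower 5 classes 15.1% and 6.91%. At 120 h 37.8% with and 22.4% without the motif were called again. The *Slco1b2* region whose window is shown above had values of 71 and 43 at 0 h, 35 to 62 at 18 and 48 h, and 206 and 88 at 120 h (relative log2 change 2.18, standard error 0.34, adjusted p = 0.000757 from limma).

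**Figure D5:**
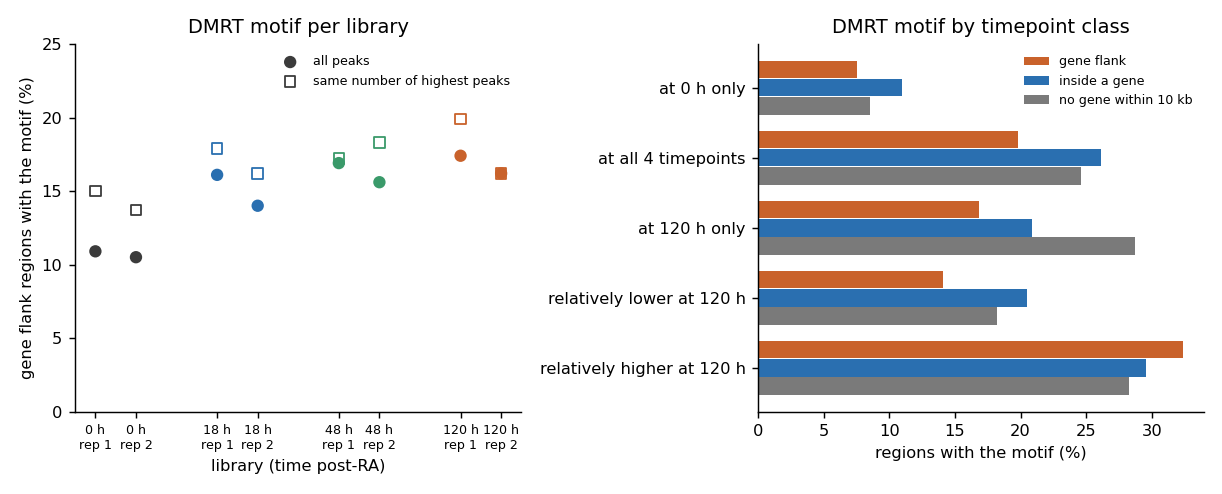
Percent of gene flank regions whose summit window holds the DMRT motif ACATTGT, per library (left, filled circles for all peaks and open squares for equal peak numbers), and per class of regions beside in-gene and intergenic regions (right). Gene flank regions rise from 10.5% and 10.9% at 0 h to between 14.0% and 17.4% later, and from 7.53% at 0 h only to 32.4% of the regions relatively higher at 120 h.

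Other motifs were found in different shares of these classes. CCAAT, bound by NF-Y, was found in 25.2% of gene flank regions and in 41.0% of those relatively lower at 120 h, against 20.7% of those relatively higher. GGGCGG, bound by SP and KLF factors, was found in 20.8% and 8.28% of these classes, and the CTCF core in 3.89% and in none of the 145. These shares are given for gene flank regions alone. At 0 h only, CCAAT stood at 26.3%, and at 120 h only at 18.3%, against 24.8% and 18.1% over all regions. Gene flank regions at 120 h only were also poorer in CpG, with a mean of 2.25 per window against 4.39 at 0 h only. Their median GC content was 48.3% against 51.7%. The mean CpG was 2.18 against 4.25 in in-gene regions and 2.01 against 4.33 in intergenic regions, so that the order was the same in all 3 kinds. The unit AGGTCA was found in 12.3% of gene flank regions and 10.7% of all regions, and in 11.3%, 12.4% and 11.2% of those at 0 h only, at all 4 timepoints and at 120 h only. The DR5 element was found in 5 gene flank regions, of 12 among all regions.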

How the data were processed

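Germ cells sorted from PIWIL2-eGFP testes were profiled by ATAC-seq in 8 libraries, with 2 for each timepoint. Following the methods, the authors aligned reads to mm10, removed duplicates, kept unique pairs, called peaks in each library with no control, and dropped those on the ENCODE blacklist. The study's supplementary statistics give the same number of normalized tags for every library. The submitters' processing notes name bcl2fastq 2.20, BWA 0.7.12, SAMtools 0.0.19, bedtools 2.25.0 and MACS2 2.1.0. The deposited table gives for each peak the signal, as tag coverage at the summit and as a mean over the peak, the assigned genes, their distance and CpG islands. Browser tracks were not used. The labels give 100000 cells per replicate, and the methods a smaller number.

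Peaks were merged, classed and counted in Python 3.11.15 (pandas 2.3.3, numpy 2.4.6, scipy 1.17.1). For each library, the log2 of its highest summit in a region was compared with limma 3.58.1 in R 4.3.3 (4 groups, no block, Benjamini-Hochberg adjustment, threshold 0.05) over the 15536 regions that held a peak in every library. In the fit as deposited, the standard error was 0.37 in every region named here. The p-values of these regions as deposited thus rest on a shared spread and not on that of each region. Shares and medians per library were compared by exact permutation tests whose two-sided p doubles the smaller tail. The merging and the fit were tested on simulated data. Sequence was read with pysam 0.24.0, and figures were drawn with matplotlib 3.10.9.

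Regions named were the 5 highest in their lowest library, the 5 largest relative rises and falls at 120 h with groups apart, the 5 highest at 0 h only and at 120 h only with no other peak, the 5 genes with the most regions, and regions of 3 gene lists. Some regions that this rule names are not reported here. Those shown for their motif, and those named from the lists without a peak in all libraries, were chosen after their values were seen, as were the counts of motifs per library and by height. The members, lists and motifs were chosen with earlier results of these data known. Alternatives were another overlap, a peak in either library, equal numbers of peaks, a summit value of at least 50, a limit of 3000 bp, the GENCODE annotation, median centring, quantile normalisation, the mean signal, a replicate block, an intensity trend and each library left out.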

Additional observations from a re-analysis of the deposited data

How the results depend on the processing

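The counts of gene flank regions called at 0, 18, 48 and 120 h stayed within 1.5 times of the reported value with an overlap of 50% and a limit of 3000 bp. A peak in either library gave 4090 at 18 h, 3784 at 48 h, 4722 at 120 h, 2383 at all 4 timepoints and 781 at 120 h only. Equal numbers of highest peaks gave 2121 at 0 h, 470 at 0 h only and 410 at 120 h only, a summit value of at least 50 gave 1283 at 48 h and 746 at all 4 timepoints, and regions outside the GENCODE annotation gave 177 at 120 h only. With 1 library left out, the counts were 2334 to 3507 at 18 h, 1982 to 3424 at 48 h, 2048 to 4523 at 120 h and 200 to 1068 at 120 h only.

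With equal numbers of highest peaks, the share of gene flank regions differed by -0.761 points, and the log2 ratios by 0.0285 to intergenic, -0.0967 to in-gene, -0.174 to gene start regions and -0.0665 upstream to downstream. A summit value of at least 50 gave -2.99 points for the share and 0.201 for upstream to downstream. The ratio to in-gene regions was -0.00377 with a limit of 3000 bp and from -0.00426 to 0.0241 with a library left out. The height against intergenic regions was -0.00249 with the mean signal and from -0.00375 to 0.0300 with a library left out. The cause was not tested.

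Centring gave, lower and higher, 8 and 28 (18 h), 27 and 74 (48 h), and 283 and 145 (120 h against 0 h), with 137 and 52 for 120 h against 48 h, and quantile normalisation gave 8 and 15, 39 and 54, 173 and 100, and 9 and 12. For 120 h against 48 h, the mean signal, the replicate block and the intensity trend each gave 3 lower. Replicate numbers did not pair the samples, since correlations of same-numbered deviations ranged from -0.224 to 0.248. The replicate block gave 96 higher at 120 h than at 48 h and 689 lower at 120 h than at 0 h, and changed no other count by over 1.5 times.

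With a library left out, as deposited, 1 to 7 were higher at 18 h, 380 to 914 lower and 9 to 37 higher at 120 h against 0 h, and 0 to 25 lower and 5 to 438 higher at 120 h against 48 h. Relative to the median, 0 to 8 were lower and 8 to 40 higher at 18 h, 5 to 28 lower and 27 to 79 higher at 48 h, 145 to 263 lower at 120 h, and 0 to 148 lower and 0 to 58 higher at 120 h against 48 h. Leaving out a library leaves 1 sample in its group, which is assumed to vary like the others. With 2 libraries per timepoint and no counts of reads, counting error is unknown.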
